A study of Mus musculus with 20 samples.

Results

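The nuclear genes of the mitochondrial respiratory chain and of ATP synthase were followed in the kidneys of 20 mice. The set holds the 89 genes, of 12393 genes measured, whose symbol begins with Nduf, Sdha, Sdhb, Sdhc, Sdhd, Uqcr, Cox4 to Cox8, Cycs, Cyc1 or Atp5 and that have a probe set matching that gene alone. A gene with several such probe sets (47 of the 89) is given by the brightest, the one with the highest mean log2 signal. The genes fall into 33 subunits of complex I, 4 of complex II, 9 of complex III, 17 of complex IV, 17 of complex V, cytochrome c itself (Cycs) and 8 assembly factors. No transcript made from mitochondrial DNA is among them.

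Whole kidney RNA came from Balb/c mice of about 10 weeks, 5 of each sex without treatment and 5 of each sex after doxorubicin, with 1 Affymetrix M430A 2.0 array per animal. Doxorubicin, an anthracycline that injures podocytes and gives albuminuria and glomerulosclerosis in this strain, was injected intravenously once at 12 mg/kg, and the kidneys were taken on day 14. The controls are labelled as healthy, and no vehicle injection is named for them. For the treated mice the age is that at injection, and whether the controls were taken at the same age as they were is not stated. The design asks whether male and female kidneys differ in health and in disease, and whether they respond differently to the drug.

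Complex I (NADH dehydrogenase) and complex II (succinate dehydrogenase) pass electrons to ubiquinone. Complex III hands them to cytochrome c, and complex IV (cytochrome c oxidase) hands them on to oxygen. Complexes I, III and IV pump protons as they do so, and complex V (ATP synthase) uses the proton gradient to make ATP. Proximal and distal tubule cells are dense in mitochondria because reabsorption of salt and solutes costs ATP. Several complex IV subunits come in isoforms, one made in most tissues and another in heart and skeletal muscle or brown fat.

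Signals are log2 intensities, and a difference of 1 is a doubling. A positive sex difference means a higher signal in females. The array background, the level under which 95% of Y-linked probe set values in females lay, was 2.75. Kdm5d, a Y-linked gene, lay at 4.50 to 7.38 in the 10 males and at 2.32 to 2.42 in the 10 females, as the labelled sexes require. Xist, the transcript of the inactive X chromosome, lay at 12.3 to 12.9 in females and at 1.89 to 6.21 in males, the highest being male M12. The excess of 3′ over 5′ signal of Actb, which grows as the labelled RNA gets shorter, was 1.42 to 1.89 in males and 1.11 to 3.23 in females. Every female but FNo5 lay above every male, at 1.99 or more, so this excess and sex can hardly be told apart. Control female FNo5 had the lowest Actb excess and stood apart in several genes, as did doxorubicin male M30-4. Of 4 markers of the distal convoluted tubule, Slc12a3, Calb1 and Pvalb were higher in females, and the summed signal of all 4 was 14.8 to 15.4 in females against 14.1 to 14.8 in males. The fourth, Trpm6, had -0.30 on average (adjusted p = 0.514) and lay at 4.87 to 6.10 in doxorubicin males and 4.01 to 4.89 in doxorubicin females. Summed signals add linear intensities, so the bright markers set them and the dim Trpm6 hardly counts. Markers of some other cells also moved with sex in control kidneys. All 5 podocyte markers had a higher mean in control females (median difference 1.2, 3 called), with a summed signal of 11.6 to 12.5 against 10.2 to 11.2 in control males. All 8 endothelial markers did too (median 0.92, 3 called), at 11.8 to 12.5 against 11.1 to 11.8, as did 4 of 4 of intercalated cells (0.70) and 4 of 4 of tubular injury (0.78), with 0 called in each. In the proximal tubule list 8 of 13 markers had a higher mean in control females (median 0.013), with 1 called higher and 1 lower. The thick ascending limb had 6 of 6 (0.45) and the collecting duct 5 of 6 (0.55), with 0 called in each. After doxorubicin the podocyte and endothelial medians were 0.16 and 0.20, with 0 called. The part of these cell types in the sex differences below was not tested beyond the distal tubule terms. In whole kidney, fewer cells of a type and less RNA per cell cannot be told apart. Nothing says that the mice came from separate cages or litters, so the p-values measure the spread between these animals.

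The genes of the respiratory chain gave strong signals in these kidneys. Their median signal was 13.2 (quartiles 12.7 and 13.9). In all, 71 of the 89 genes had a mean over 12. Atp5b, the catalytic β subunit of ATP synthase, had a mean of 14.8, and Cox6b1, a complex IV subunit facing the intermembrane space, had a mean of 15.1. The 8 assembly factors had means from 8.01 for Ndufaf5 to 10.4 for Ndufaf4. Probe sets differ in how well they bind, so levels of different genes are not ranked here.

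At the other end, 86 genes were above the background in all 20 kidneys. Cox6a2, the heart and muscle isoform of subunit 6a, and Cox8c, a testis isoform of subunit 8, were at or under it in every kidney. Cox4i2, the isoform of subunit 4 known from lung, passed it in control female F1 alone, at 3.01. The widely expressed partners Cox6a1 (mean 15.0), Cox8a (12.5) and Cox4i1 (14.7) were well above it. Within a group the genes varied little between animals. Their median SD was 0.125, against 0.212 over all genes and 0.170 over the 385 other genes at or above the lower quartile of their signal. Only 4 had an SD over 0.4, all in complex IV, namely Cox8b (1.10), Cox7c (0.843), Cox6b2 (0.657) and Cox7a1 (0.459).

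Averaged over control and doxorubicin kidneys, 11 of the 89 genes differed between the sexes at an adjusted p under 0.003 (12.4%, against 6.59% of all genes). Cox8b, Cox7a1, Ndufc1, Ndufc2, Ndufs7, Atp5h, Atp5k and Atp5md were higher in females (8.99%, against 3.47% of all genes). Sdhaf1, Ndufa10 and Cycs were lower in females (3.37%, against 3.12%). At an adjusted p under 0.05 the count was 22 genes, 16 higher and 6 lower (24.7%, against 18.8%). All genes had a lower quartile of signal of 2.55, under the array background. On the upper 60% of probe sets by mean signal 7 genes of the set were called. There 11.5% of all genes kept were called, a larger share than in the set. The median difference over the 89 genes was 0.065, against 0.0042 over all genes, and 62 had a higher mean in females (53 with median centring of the arrays). Apart from Cox8b and Cox7a1 the called differences were small, between 1.11-fold and 1.42-fold (limma with Benjamini-Hochberg adjustment over all probe sets tested). No gene of the set was called with the Actb excess as a term in the fit or with the mean of Slc12a3, Calb1 and Pvalb as one, against 1.90% and 0.412% of all genes. These 3 markers were picked once they were seen to be higher in females, and both terms were added after the data were seen. Since the Actb excess parted every female but FNo5 from the males, that fit cannot separate it from sex. With the mean of all 4 distal tubule markers, added later still, 6 genes were called (6.74%, against 3.91% of all genes), namely Cox8b, Ndufc1, Ndufs7, Atp5h, Ndufa10 and Cycs. With the Gapdh excess 4 genes were called (4.49%, against 3.28%), and without 9 kidneys with brown fat markers, also added then, only Cox8b was (1.12%, against 0.758%). Leaving out 1 kidney at a time gave 6 to 16 called genes, where 5.08% to 10.7% of all genes were called.

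**Figure D1:**
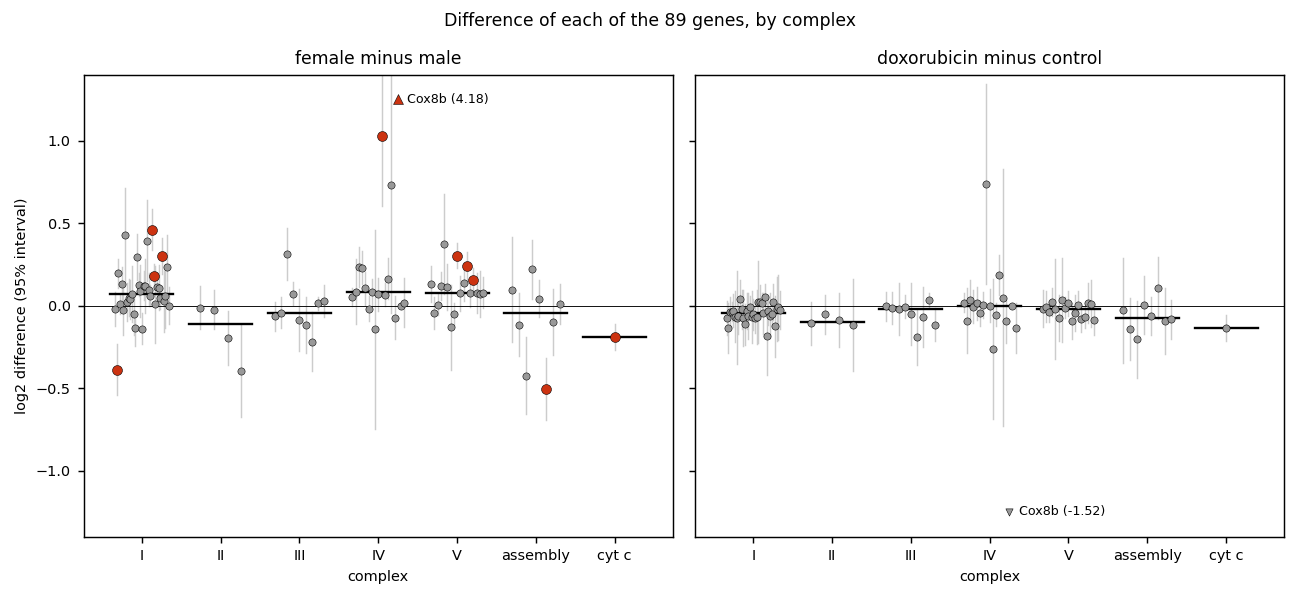
Log2 difference of each of the 89 genes by complex, female minus male (left, averaged over control and doxorubicin kidneys) and doxorubicin minus control (right, averaged over both sexes). Points are genes, grey lines 95% intervals, black bars the median of the complex, and red points genes past the threshold (11 on the left, 0 on the right). The triangles mark Cox8b, which lies outside the axis at 4.18 and -1.52 and is drawn without its interval.

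The plot of differences by complex shows that most genes lay close to 0 in both comparisons and that complex IV held the widest range. For 79 of the 89 genes (88.8%, against 71.4% of all genes) the whole 95% interval of the sex difference lay within 1.5-fold. The set's median standard error was 0.055, against 0.093 over all genes, and the intervals of other genes of like signal were not compared.

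Cox8b, the subunit 8 isoform of heart, muscle and brown fat, had the largest difference of the set. Its log2 signal in control males was 9.15, 6.96, 7.47, 4.29 and 6.63, and in doxorubicin males 4.36, 5.14, 4.15, 3.56 and 4.46. In control females it was 8.65, 11.02, 10.14, 10.62 and 9.71, and in doxorubicin females 8.89, 9.80, 9.03, 10.77 and 9.30. Every female thus lay above every male but control male M30-1, whose 9.15 was above 3 of the 10 females. The difference was 4.18 (95% interval 3.17 to 5.19, adjusted p = 1.19e-05, limma), an 18.1-fold higher signal in females. After doxorubicin it was 5.22 (3.79 to 6.65, adjusted p = 0.000132) with no overlap of the groups. In control kidneys it was 3.13 (1.70 to 4.56), and its adjusted p of 0.00753 missed the threshold of 0.003.

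**Figure D2:**
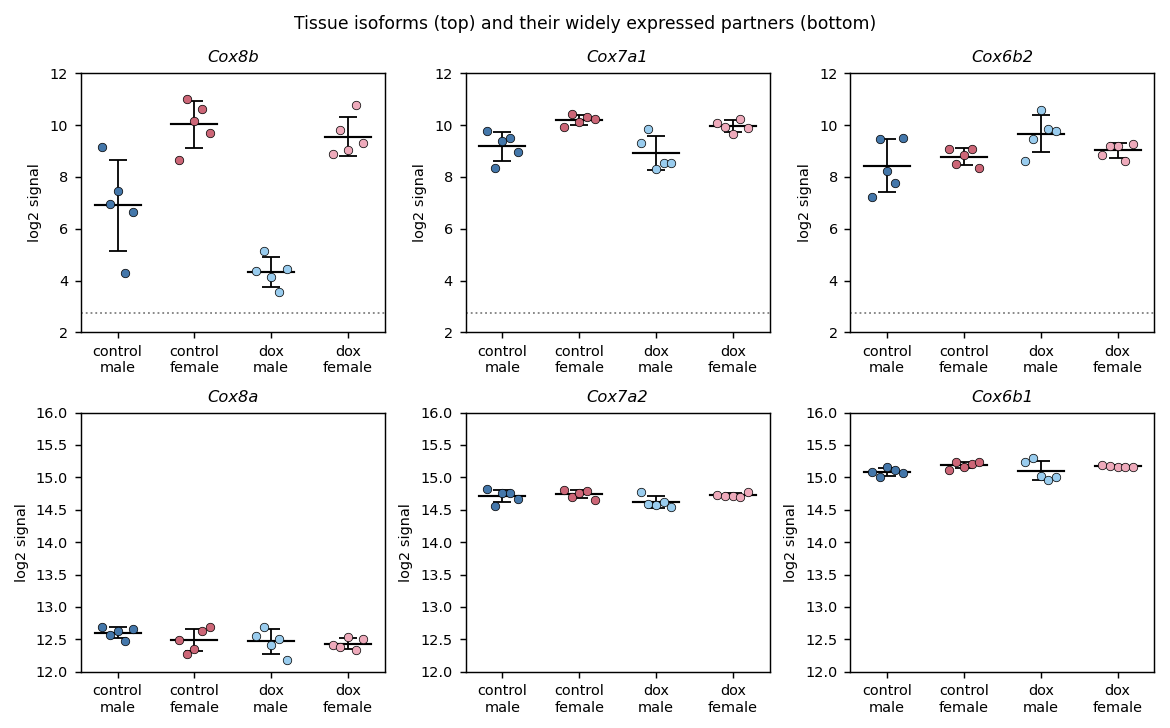
Log2 signal of 3 complex IV isoforms restricted to some tissues (top) and of the widely made partner of each (bottom) in every kidney. Points are animals, 5 per group, with the mean (bar) and SD (whiskers), the dotted line is the array background of 2.75, and the top and bottom rows have axes of different range that do not start at 0. Cox8b lies at 3.56 to 5.14 in doxorubicin males and at 8.65 or more in all females, while the partners span less than 1 log2 unit.

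Cox8a is its widely made partner. Its difference between the sexes was -0.073 (-0.21 to 0.059, adjusted p = 0.527), and the values of all 4 groups overlapped in the plot of isoforms. The brightest of the 3 probe sets of Cox8a, used here, is of a kind that can share probe sequences with other genes. Cox7a1, the heart and muscle isoform of subunit 7a, was also higher in females. It lay at 9.78, 8.35, 9.37, 9.51 and 8.94 in control males and at 9.32, 9.87, 8.29, 8.55 and 8.54 in doxorubicin males. In females it lay at 9.91, 10.44, 10.12, 10.31 and 10.25 without the drug and at 10.09, 9.91, 9.64, 10.25 and 9.88 with it. All control females were above all control males, and after doxorubicin male M30-4 overlapped the lowest female. The difference was 1.03 (0.61 to 1.45, adjusted p = 0.00189), or 2.04-fold, while that of its partner Cox7a2 was 0.065 (-0.0051 to 0.14, adjusted p = 0.209).

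Brown fat makes Cox8b too, and kidney samples can carry perirenal fat. Of 3 brown fat markers measured, Elovl3 was at background in every kidney, while Ucp1, the uncoupling protein of brown fat, or Cidea, a lipid droplet protein, were above it in 9 of the 20. Their summed log2 signal, Elovl3 included, spanned 3.73 to 8.37 in control males and 3.73 to 8.50 in control females, and after doxorubicin 3.75 to 3.76 in males and 3.77 to 10.6 in females. Ucp1 was highest in doxorubicin female F10-3 (9.93), control female F10-1 (7.26) and control male M30-1 (6.96), and each had the highest Cox8b signal of its group. In 11 kidneys both markers were at or under background, though Adipoq, a marker of white fat, was above it in F1 (5.51) and M9 (6.02). In these 11 Cox8b lay between 8.65 and 10.1 in 5 females and between 3.56 and 5.14 in 6 males. The difference between the sexes without the other 9 kidneys was 4.92 (adjusted p = 0.000738). With the Actb excess as a term it was 3.60 (adjusted p = 0.00366) and with the 3 distal tubule markers higher in females 4.99 (adjusted p = 0.0424), both outside the threshold. With all 4 of those markers it was 5.21 (adjusted p = 0.000143), within it. The 7 striated muscle markers were near background in all groups, with a summed signal of 5.15 to 5.32.

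**Figure D3:**
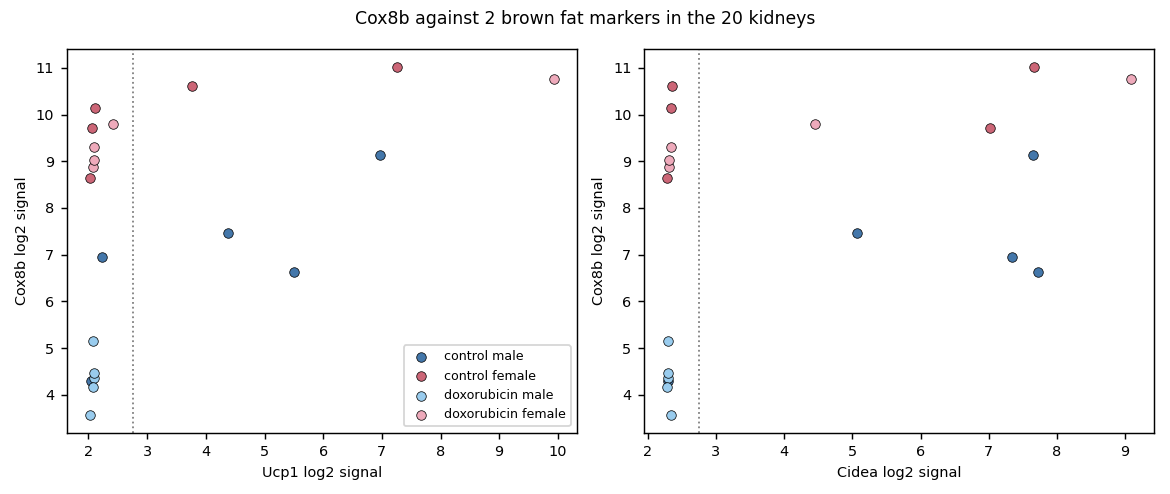
Log2 signal of Cox8b against Ucp1 (left) and Cidea (right) in the 20 kidneys, coloured by group, with the array background of 2.75 as a dotted line. Left of that line the females lie at 8.65 or more and the males at 6.96 or less, and the males with Cidea signal lie above the other males.

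In males the difference of Cox8b after doxorubicin was -2.56 (-3.99 to -1.13, unadjusted p = 0.0015), and the adjusted p of 0.229 did not pass. Control male M30-5, the only control male with Ucp1 and Cidea at background, had 4.29, within the range of the doxorubicin males. In females the difference was -0.47 (-1.90 to 0.96). The difference of the responses, 2.09 (0.071 to 4.11), had an adjusted p of 0.778.

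The 250 bases before the listed start of Cox8b and Cox7a1, both higher in females, and of their partners are shown so that the pairs can be read side by side. They are from RefSeq (GRCm38.p6), on the strand of the gene, with CG dinucleotides in capitals: Cox8b at chr7:140900447-140900696 (minus), Cox8a at chr19:7217617-7217866 (minus), Cox7a1 at chr7:30183921-30184170 (plus) and Cox7a2 at chr9:79759854-79760103 (minus).
Cox8b: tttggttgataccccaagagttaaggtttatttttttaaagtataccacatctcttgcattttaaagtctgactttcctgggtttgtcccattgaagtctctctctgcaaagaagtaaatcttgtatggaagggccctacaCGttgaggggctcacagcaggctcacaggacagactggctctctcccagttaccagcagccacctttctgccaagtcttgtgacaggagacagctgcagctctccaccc
Cox8a: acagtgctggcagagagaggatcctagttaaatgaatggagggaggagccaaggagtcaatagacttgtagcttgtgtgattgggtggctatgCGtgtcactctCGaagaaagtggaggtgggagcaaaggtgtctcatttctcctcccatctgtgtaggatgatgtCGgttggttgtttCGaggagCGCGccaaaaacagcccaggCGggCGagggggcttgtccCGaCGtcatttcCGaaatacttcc
Cox7a1: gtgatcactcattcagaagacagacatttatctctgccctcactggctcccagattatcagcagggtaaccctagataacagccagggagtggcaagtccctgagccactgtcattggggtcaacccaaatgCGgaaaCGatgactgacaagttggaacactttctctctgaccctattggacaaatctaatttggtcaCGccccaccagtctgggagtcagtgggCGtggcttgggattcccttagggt
Cox7a2: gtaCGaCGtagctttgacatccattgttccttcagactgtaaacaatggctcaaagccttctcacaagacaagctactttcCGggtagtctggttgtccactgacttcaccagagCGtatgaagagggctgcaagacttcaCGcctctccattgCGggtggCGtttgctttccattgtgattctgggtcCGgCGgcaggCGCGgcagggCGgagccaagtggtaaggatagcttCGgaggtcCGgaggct

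Cox8b has 1 CG dinucleotide in this window and Cox7a1 has 4, against 11 in Cox8a and 14 in Cox7a2. The Cox7a2 window lies inside the span of its gene, chr9:79755241-79771422, and not before the outer end of that span. The median was 15 over the 79 windows of 74 genes of the set that RefSeq listed and 6 over all 32841 windows. Both strands of these windows were searched for short motifs, none of which contains another. CATGCGC, a half-site of nuclear respiratory factor 1, was in 13.9% of the set's windows and 3.24% of all windows. CCGGAAG, the core bound by ETS factors such as GABP, was in 17.7% and 6.91%. AAGGTCA, the half-site of estrogen-related receptors, was in 5.06% and 4.08%, and GGGCGG, the Sp1 core, in 38% and 32.7%. None of these 4 was in the Cox8b, Cox8a or Cox7a1 window, and the Cox7a2 window held the Sp1 core. CAGCTG, an E-box letter string bound by muscle factors, was added after the Cox8b sequence had been read. It was in the Cox8b window, in 7.59% of the set's windows and in 13% of all windows. A match is a run of letters and not a measured binding site.

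Cox6b2, known as a testis isoform of subunit 6b, varied between males, and its sex difference did not pass (-0.15, -0.75 to 0.46, adjusted p = 0.871). Control males lay at 7.23, 9.45, 8.23, 7.75 and 9.50 and doxorubicin males at 8.62, 9.48, 10.59, 9.85 and 9.76. Females lay between 8.36 and 9.28. In males the difference after doxorubicin was 1.23 (0.37 to 2.09) with an adjusted p of 0.408. Animals numbered with the prefix 30 were lower than the other males in each group, and within the prefix the difference was 1.32 (2 against 3 males), within the males without one 0.591 (3 against 2). The partner Cox6b1 differed by 0.083 between the sexes (0.0044 to 0.16, adjusted p = 0.145).

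Cox7c, a small subunit, had a mean of 5.35 with the brighter of its 2 probe sets. It lay at 3.10 in M30-4 and 3.12 in FNo5 and at 4.54 to 6.42 in the other 18 kidneys, and its difference between the sexes was 0.73 (-0.047 to 1.51, adjusted p = 0.202). Cox5a and Cox5b, 2 nuclear subunits that all cells make, had 0.24 (adjusted p = 0.00873) and 0.23 (adjusted p = 0.00317), outside the threshold. Cox7a2l, which helps to join complexes III and IV, had 0.16 (adjusted p = 0.066). The probe sets used for Cox5b and Cox7a2l are of a kind that can share probe sequences with other genes. Cox4i1 (0.052, adjusted p = 0.212) and Cox6a1 (0.11, adjusted p = 0.144) did not pass.

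Complex V held 3 called genes, none of them catalytic. Atp5h encodes subunit d of the stalk that holds the catalytic head still. It lay at 14.39, 14.44, 14.48, 14.57 and 14.34 in control males and at 14.76, 14.95, 14.78, 14.83 and 14.72 in control females. After doxorubicin it lay at 14.52, 14.66, 14.51, 14.41 and 14.50 in males and at 14.75, 14.72, 14.74, 14.85 and 14.74 in females. The sexes did not overlap in either condition. The difference was 0.30 (0.22 to 0.38, adjusted p = 1.84e-05), and in control kidneys 0.36 (adjusted p = 0.000191). Its dimmer probe set gave 0.18 (adjusted p = 0.0568).

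Atp5k, subunit e of the membrane part, was 0.24 higher in females (0.15 to 0.32, adjusted p = 0.000593). Control females lay at 13.04 to 13.21 and control males at 12.71 to 12.89, without overlap, while after doxorubicin male M30-4 at 13.10 lay among the females. Its 3 probe sets all had a higher mean in females, and the brightest, which passed, is of a kind that can share probe sequences with other genes. Atp5md, a small membrane subunit, lay at 13.67 to 13.85 in control males and 13.78 to 13.98 in control females, and after doxorubicin at 13.57 to 13.81 in males and 13.85 to 13.95 in females. It was 0.16 higher in females (0.089 to 0.22, adjusted p = 0.00277), with no overlap after doxorubicin, and was called in 2 of the 20 fits that each left out 1 kidney. The genes of the catalytic head did not pass. Atp5a1, the α subunit, had 0.13 (0.018 to 0.24, adjusted p = 0.104), Atp5b had -0.046 (-0.14 to 0.049, adjusted p = 0.596), and Atp5c1, the central γ shaft, had 0.0051 (-0.059 to 0.069, adjusted p = 0.982). Of the 3 genes of the proton-carrying ring, Atp5g1 had 0.11, Atp5g2 -0.13 and Atp5g3 -0.052, all with intervals that held 0. Atp5e, the ε subunit, had the highest difference of complex V at 0.37 (0.069 to 0.68, adjusted p = 0.0875).

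**Figure D4:**
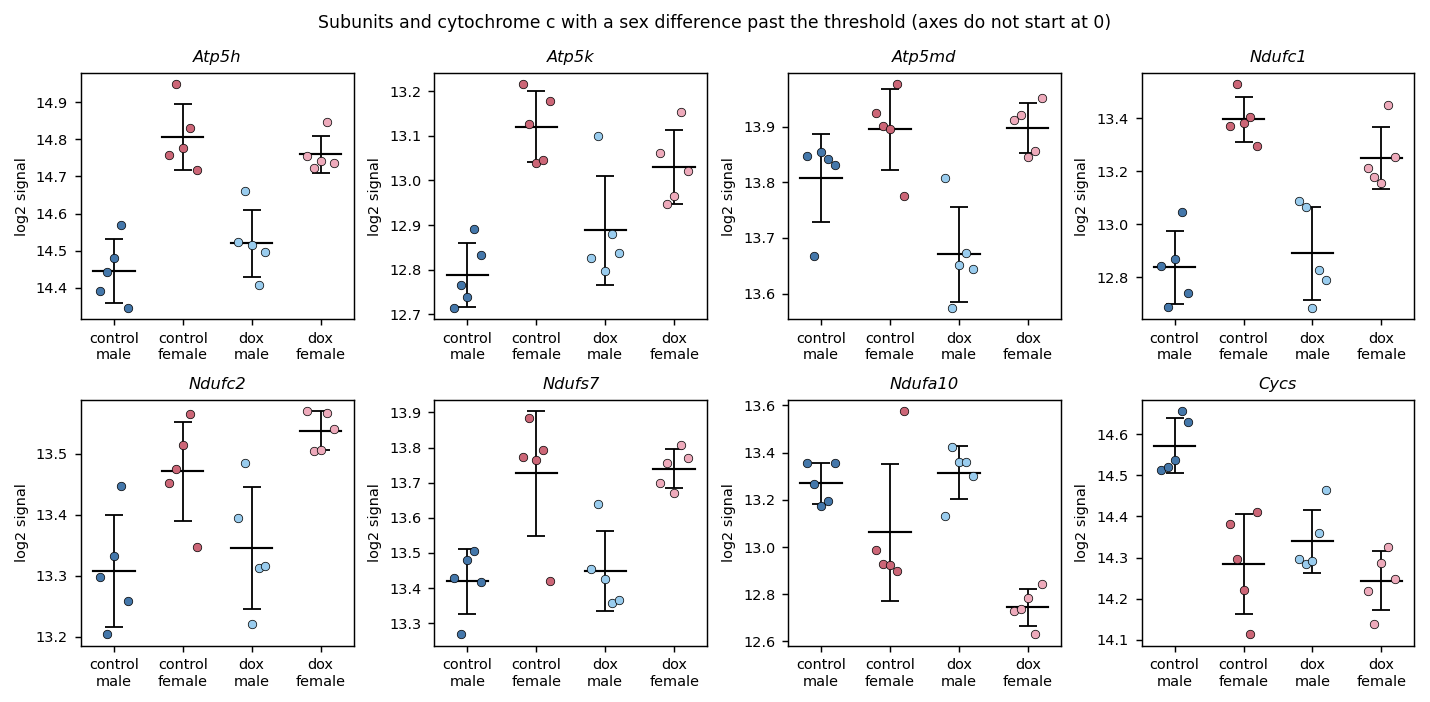
Log2 signal in every kidney of 8 genes called between the sexes, on axes that do not start at 0 and differ between panels. Points are animals, 5 per group, with the mean (bar) and SD (whiskers). The females lie above the males in Atp5h and Ndufc1 with no overlap, and control female FNo5 lies apart from its group in Ndufa10 (13.58) and Ndufs7 (13.42).

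Complex I held 4 called genes, 3 higher in females and 1 lower. Ndufc1, an accessory membrane subunit, lay at 12.84, 12.69, 12.87, 13.05 and 12.74 in control males and at 13.37, 13.53, 13.38, 13.40 and 13.29 in control females. After doxorubicin it lay at 13.09, 13.06, 12.68, 12.83 and 12.79 in males and at 13.21, 13.18, 13.15, 13.45 and 13.25 in females. No male reached the lowest female of its condition, and the difference was 0.46 (0.34 to 0.58, adjusted p = 3.95e-05). Its second probe set gave 0.30 (adjusted p = 0.0303). Ndufc2, its neighbour in the complex, had 0.18 (0.10 to 0.25, adjusted p = 0.00226), but its other probe set had -0.031. Ndufs7, an iron-sulfur subunit next to the ubiquinone site, lay at 13.27 to 13.51 in control males and at 13.76 to 13.88 in 4 control females, with FNo5 at 13.42. It had 0.30 (0.19 to 0.41, adjusted p = 0.000716), and its other probe set had 0.022. Ndufb10, an accessory subunit, had 0.29 (adjusted p = 0.00498).

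Ndufa10, another accessory subunit, was lower in females by a log2 value of -0.39 (-0.54 to -0.23, adjusted p = 0.00136). It lay at 13.36, 13.27, 13.17, 13.20 and 13.36 in control males and at 12.99, 12.93, 12.92, 12.90 and 13.58 in control females, so that 4 females were below all males and FNo5 above them. After doxorubicin it lay at 13.13, 13.42, 13.36, 13.36 and 13.30 in males and at 12.73, 12.74, 12.78, 12.63 and 12.84 in females. The sexes no longer overlapped there, and the difference of -0.57 (-0.79 to -0.35, adjusted p = 0.00249) passed, while that of control kidneys, -0.21, did not (adjusted p = 0.28). The doxorubicin call was kept in 4 of the 20 fits that each left out 1 kidney, with an adjusted p of up to 0.00881 in the others. The second probe set of Ndufa10 was dim (5.37) and had 0.10. Of the core subunits of complex I other than Ndufs7 none passed. Ndufs1 had 0.0085, Ndufs8 0.026, Ndufv1 0.060 and Ndufv2 0.23 (adjusted p from 0.101 to 0.992), and Ndufs3 did not pass either. Ndufa4l2 was not analysed here.

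Probe sets of a gene often parted. Of the 47 genes with several, 28 had the same sign in all of them for the sex difference, and none was called by all. Ndufa12 and Ndufb11 passed with a dimmer probe set alone (0.22, adjusted p = 0.00241, and 0.19, adjusted p = 0.0028), while their brightest had 0.19 (adjusted p = 0.0044) and 0.13 (adjusted p = 0.0148).

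Cytochrome c, which carries electrons between complexes III and IV and starts apoptosis when it leaves the mitochondrion, was lower in females by a log2 value of -0.19 (-0.27 to -0.11, adjusted p = 0.00231). Cycs lay at 14.51, 14.52, 14.54, 14.66 and 14.63 in control males and at 14.38, 14.30, 14.22, 14.11 and 14.41 in control females, without overlap. After doxorubicin it lay at 14.30, 14.29, 14.29, 14.36 and 14.47 in males and at 14.22, 14.14, 14.29, 14.33 and 14.25 in females, and the sexes overlapped. The control difference was -0.29 (-0.40 to -0.17, adjusted p = 0.00271), a call kept in 5 of the 20 fits without 1 kidney (adjusted p up to 0.0104), and that after doxorubicin was -0.096 (adjusted p = 0.323). The change of that difference, 0.19 (0.029 to 0.35), had an adjusted p of 0.702. The second of its 3 probe sets was called too, at -0.43 (adjusted p = 0.000995), and the third had -0.29 (adjusted p = 0.0257).

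All 4 genes of complex II had lower means in females, and none passed. Sdhd and Sdhc, the membrane anchors, had -0.40 (-0.68 to -0.12, adjusted p = 0.0462) and -0.20 (-0.36 to -0.032, adjusted p = 0.0961). The catalytic subunits Sdha and Sdhb had -0.012 and -0.024. Sdhd lay at 12.15 to 12.65 in males and at 11.52 to 12.18 in 9 females, with FNo5 at 12.89. Sdhaf1, which helps to put iron-sulfur clusters into complex II, was lower in females by a log2 value of -0.51 (-0.69 to -0.32, adjusted p = 0.000812). It lay at 9.23, 8.92, 9.10, 9.12 and 8.88 in control males and at 8.57, 8.59, 8.47, 8.81 and 8.33 in control females. After doxorubicin it lay at 9.05, 9.72, 8.97, 8.92 and 9.17 in males and at 8.57, 8.55, 8.72, 8.64 and 8.79 in females. No female reached the lowest male of its condition. Ndufaf4, an assembly factor of complex I, had -0.42 (adjusted p = 0.0133).

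Complex III showed no called gene. Uqcr11, its smallest subunit, had 0.32 (adjusted p = 0.00743) and Uqcrfs1, the Rieske iron-sulfur protein, -0.22 (-0.40 to -0.039, adjusted p = 0.0899). The core proteins Uqcrc1 and Uqcrc2 had -0.090 and -0.12, and Cyc1, cytochrome c1, had -0.066 (adjusted p from 0.323 to 0.603).

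Set side by side, 27 of 33 complex I genes, 13 of 17 of complex IV and 14 of 17 of complex V had a higher mean in females, against 0 of 4 in complex II and 4 of 9 in complex III. Over all genes 56.9% did. The median differences were 0.069, 0.083, 0.079, -0.11 and -0.044. The 19 subunits taken here as core, not all of them catalytic, had a median of 0.0051. The other 61 subunits, with Ndufs3 of complex I among them, had 0.075. These are descriptions without a test and without median centring of the arrays, which lowered the count of genes higher in females over the whole set. The mean deviation of complex IV was -0.13 ± 0.10 in control males and 0.20 ± 0.12 in control females, and after doxorubicin -0.27 ± 0.049 in males and 0.20 ± 0.043 in females (SD, n = 5), which Cox8b weighs on. By the median over its subunits these values were -0.021 ± 0.029, 0.040 ± 0.045, -0.055 ± 0.081 and 0.051 ± 0.032. For complex II the mean deviations were 0.14 ± 0.043, -0.050 ± 0.26, 0.017 ± 0.046 and -0.11 ± 0.13 in the same order.

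**Figure D5:**
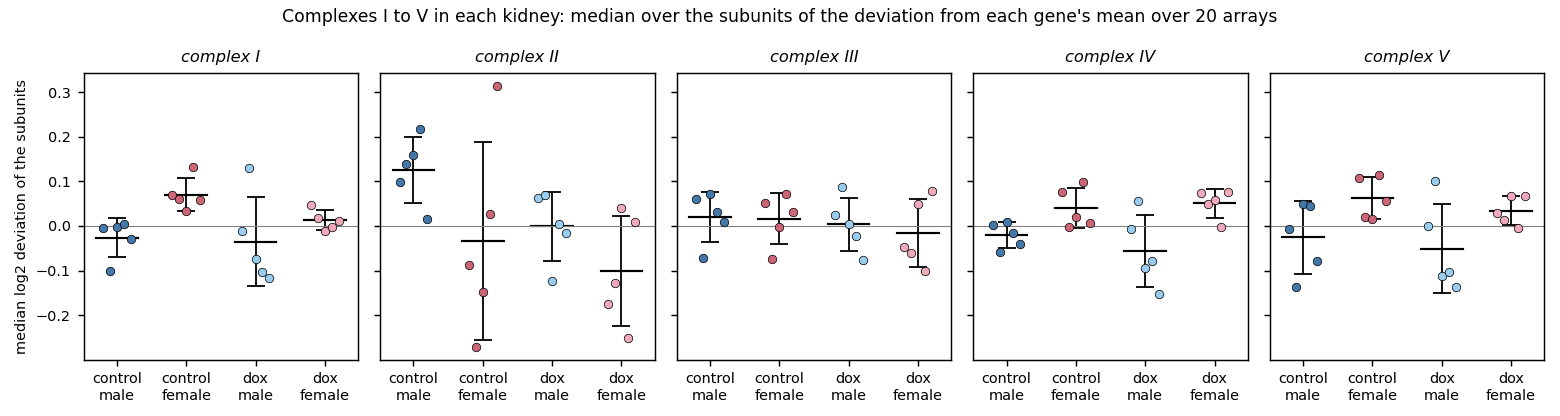
Median over the subunits of each complex of the log2 deviation from the gene's mean over the 20 arrays, in every kidney. Points are animals, 5 per group, with the mean (bar) and SD (whiskers). Complexes I, IV and V lie slightly higher in females, complex II spans -0.27 to 0.31 in control females, and all group means are within 0.13 of 0. The arrays are not median centred.

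Within a prefix of the animal number, which the labels give without saying what it means, the control kidneys without a prefix (2 females, 2 males) had a median of 0.121 over the 89 genes, those with the prefix 30 (1 against 3) had 0.061, and the doxorubicin kidneys without one (3 against 3) had 0.0945. Cox8b differed by 2.38, 3.65 and 5.18 and Cox7a1 by 1.43, 0.758 and 1.42 in the same order. Atp5h, Ndufc1, Ndufs7 and Ndufc2 were higher and Cycs and Sdhaf1 lower in females without overlap in each of the 3, while Ndufa10 had -0.0286 in the first. These genes were chosen as called on the same kidneys, so the splits are a description and no further test. The share of all genes without overlap in such small groups was not computed. With the prefix as a term 14 genes were called (15.7%, against 6.16% of all genes), without Sdhaf1 (adjusted p = 0.00338) and Ndufa10 (adjusted p = 0.00708).

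In control kidneys alone 4 of the 89 genes passed 0.003 (Atp5h, Ndufc1, Atp5k and Cycs, 4.49%, against 3.13% of all genes), and 14 passed 0.05 (15.7%, against 9.38%). On the upper 60% of probe sets 2 passed 0.003, where 5.08% of all genes kept did, a larger share than in the set. The groups did not overlap in 14 genes (15.7%, against 8.77%). After doxorubicin 2 passed 0.003 (Cox8b and Ndufa10, 2.25%, against 1.96%), 9 passed 0.05 (10.1%, against 8.17%), and 10 did not overlap (11.2%, against 10.2%). The share after doxorubicin was thus near that of all genes. With median centring of the arrays, 47 of the 89 genes in place of 59 had a higher mean in control females, and the median went from 0.077 to 0.026.

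Between doxorubicin and control kidneys no gene of the respiratory chain passed in either sex. In females 2 alternatives called 1 gene each, Uqcrc2 with the number prefix as a term (-0.44, adjusted p = 0.029, with 0.694% of all genes called) and Ndufa13 with array weights (-0.13, adjusted p = 0.0147, with 0.5%). In males 0 of 89 passed 0.03, against 0.0646% of all genes, and 9 had an unadjusted p under 0.05 (10.1%, against 8.46%). In females 0 passed 0.04, against 0.0242%, and 5 had an unadjusted p under 0.05 (5.62%, against 4.58%). Averaged over both sexes 0 passed 0.05, against 0.0323%, and 7 had an unadjusted p under 0.05 (7.87%, against 6.23%). The differences were small. The median was -0.031 in males and -0.045 in females, against -0.011 and 0.0073 over all genes. Averaged over both sexes 67 of the 89 genes had a lower mean after doxorubicin with a median of -0.039, against 6694 of 12393 and -0.0034 over all genes. With median centring 80 did on average, and in males 73 in place of 53. The whole 95% interval lay within 1.5-fold for 84 genes in males, 84 in females and 85 on average (94.4%, 94.4% and 95.5%, against 69.4%, 72.2% and 85.3% of all genes). The set's median standard error within a sex was 0.078, against 0.131 over all genes. The intervals of other genes of like signal were not compared.

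Cycs had the smallest p of the set in males, with a difference of -0.23 (-0.35 to -0.12, unadjusted p = 0.000518, adjusted p = 0.141). Each doxorubicin male lay below each control male, the only gene of the set without overlap there (1.12%, against 1.69% of all genes). In females its difference was -0.041 (-0.16 to 0.073). Ndufa10 was the only gene without overlap in females (1.12%, against 1.44%), with -0.32 (-0.53 to -0.10, adjusted p = 0.511), and in males it had 0.045. Sdha had -0.27 in males (adjusted p = 0.389) and Uqcrc2 -0.39 in females (adjusted p = 0.41).

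Averaged over both sexes, Uqcrc2 had -0.19 (-0.36 to -0.021, adjusted p = 0.759). Sdhb had -0.054 (-0.17 to 0.062), Cyc1 -0.0045 (-0.091 to 0.082), Cox5b -0.0068 (-0.11 to 0.095) and Atp5b -0.0069 (-0.10 to 0.089). Ndufs1, an iron-sulfur subunit of complex I, had -0.18 (-0.42 to 0.049). Of the tubular injury markers 4 of 4 had a higher mean after doxorubicin (median 0.55), and of 10 immune cell markers 8 did (median 0.41), with 0 called in each list. The medians of the sexes differed in these lists, at 0.85 in males and 0.089 in females for immune cells and 0.62 and 0.48 for tubular injury. The podocyte median was 0.64 in males, where 5 of 5 markers had a higher mean, and -0.41 in females, where 0 of 5 did. Stroma had 0.44 and -0.11 and endothelium 0.29 and -0.25, and no marker of these lists was called in either sex. These medians do not show the spread between animals. In the stroma list Col1a1 lay at 9.10 and 9.39 in doxorubicin males M30-3 and M30-4. It lay at 3.23 to 4.74 in the other doxorubicin males and at 4.68 to 6.46 in control males. Among doxorubicin females it was highest in F10-3 (7.23), the others at 4.68 to 5.08. Dcn did not part the males in this way (9.18 to 10.4 after doxorubicin). The part of these cell types in the differences of the respiratory chain was not tested.

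The responses of the sexes were compared as an interaction. Of the 89 genes 0 passed an adjusted p of 0.05, against 0% of all genes, and 11 had an unadjusted p under 0.05 (12.4%, against 6.87%). The smallest was that of Ndufa13, an accessory subunit of complex I (-0.18, -0.29 to -0.066, adjusted p = 0.438), followed by Sdha (0.33, adjusted p = 0.641). The median over the 89 genes was -0.0078, and with median centring it was 0.038, with 57 genes above 0.

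Genes around the chain were read from lists, against the 6.59% of all genes called between the sexes on average (3.47% higher, 3.12% lower). Most lists are too short for their counts to be read against these shares. Of 7 genes that feed electrons to ubiquinone by other routes, 3 were lower in females. Gpd2, the glycerol phosphate dehydrogenase of the inner membrane, had -1.22 (adjusted p = 1.93e-05). Etfdh, which takes electrons from fatty acid oxidation, had -0.84 (adjusted p = 0.00221). Chdh, choline dehydrogenase, had -0.47 (adjusted p = 6.91e-06). Atpif1, the inhibitor of ATP synthase, was higher in females by 0.37 (adjusted p = 3.17e-05), the only one called of 7 genes of ATP and phosphate exchange. The antioxidant enzymes Gpx4 (-0.43) and Prdx3 (-0.27) were lower in females, 2 of 6 measured.

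Of the 14 regulators of mitochondrial biogenesis, such as Ppargc1a and Tfam, and of the 13 citric acid cycle genes, none was called between the sexes, with medians of 0.11 and 0.060. Of 18 further assembly factors 1 was lower in females (Foxred1, -0.26). The 74 genes of the mitochondrial ribosome had 3 higher and 3 lower, and the 22 of mitochondrial import had 1 lower (Timm17a, -0.53). After doxorubicin 0 genes of each of these lists passed on average, with medians from -0.095 for the citric acid cycle to -0.021 for the mitochondrial ribosome.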

How the data were processed

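Affymetrix M430A 2.0 arrays, 1 per animal, measured whole kidney RNA of 20 mice in 4 groups of 5, taken from the sample labels. The authors processed the scans with GCRMA (background adjustment, quantile normalization and 1 value per probe set, version not given in the sources used here), and the deposited values are intensity values on a linear scale. They were converted to log2 here with no pseudocount.

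Of 22690 probe sets, 64 array controls were left out and 22626 tested. Symbols came from the platform annotation, where 20380 probe sets named 1 gene, 691 several and 1555 none. A fit of 4 group means (limma 3.58.1 in R 4.3.3, 16 residual and 0.780 prior degrees of freedom) gave each comparison, with Benjamini-Hochberg adjustment over all tested probe sets. Thresholds on the adjusted p were 0.003 between the sexes, 0.03 for doxorubicin in males, 0.04 in females and 0.05 otherwise, with limma in place of SAM. Shares of all genes are over 12393 genes, brightest probe set each. The code was tested on simulated data. Promoters came from RefSeq by gene, and all 89 genes matched by Entrez ID. The number of arrays limits the precision.

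Genes named are those past a threshold, the tissue isoforms, the core subunits and those at the ends of each complex, and others were chosen after their values were seen. The genes of the set and the lists were chosen with earlier results of these data known. Alternatives covered variance priors, array weights, normalization, a filter, the number prefix, RNA quality, probe set choice, fat and tubule markers and leaving out animals.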

Additional observations from a re-analysis of the deposited data

Results flagged for a closer look

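In 196 groups of 5 animals, 17 values stood apart from the other 4 by Dixon's test, where chance gives about 1 group in 20. Control female FNo5 stood apart 4 times, in Ndufa10 (13.58, the others 12.90 to 12.99), Ndufs7 (13.42, the others 13.76 to 13.88), Ndufv1 (12.86, the others 13.29 to 13.40) and Atp5a1 (14.28, the others 14.59 to 14.63). Doxorubicin male M30-4 did so in Atp5k (13.10, the others 12.80 to 12.88), Cyc1 (14.27, the others 14.00 to 14.05) and Cox4i2 (2.179, under the background). Doxorubicin female F10-3 did so in Atp5h (14.85, the others 14.72 to 14.75) and Atp5c1 (14.24, the others 14.38 to 14.44). Control male M13 was low in Atp5md (13.67, the others 13.83 to 13.85), and control male M30-2 was low in Uqcrc2 (13.88, the others 14.13 to 14.23). Doxorubicin female F3 was high in Cox6a1 (15.10, the others at 15.04). Control female F1 had the only Cox4i2 signal above the background (3.011, the others 2.069 to 2.077). The Cox6a2 values of M12 (2.388), F10-2 (1.993), M11 (1.881) and F5 (2.080) stood apart from their groups at or under the background, where differences have no order.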

How the results depend on the processing

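No called value changed sign in the fits on the brightest probe set or on the mean over probe sets, but the other probe sets of Ndufc2 (-0.031) and Ndufa10 (0.10) had the opposite sign on average, and with the mean Ndufa10 (-0.14, adjusted p = 0.301), Ndufc2 (0.074, adjusted p = 0.415) and Ndufs7 (0.16, adjusted p = 0.0111) were not called. The number of called genes moved with the processing, and so did that of all genes, whose percentage called stands in parentheses. Between the sexes in control kidneys (4 called) it was 1 with only the groups compared (1.48), 10 with array weights (7.52), 2 on the upper 60% of probe sets (5.08), 9 with the number prefix (3.17), 2 with the Gapdh excess (2.24), 2 with the mean over probe sets (3.04), 10 without FNo5 and M30-4 (7.33) and 14 at an adjusted p of 0.05 (9.38). After doxorubicin (2 called) it was 9 with array weights (6.32), 1 with median centring (2.04), 7 with the prefix (3), 1 with the Gapdh excess (1.23), 1 with the mean over probe sets (1.94), 4 without FNo5 and M30-4 (3.44) and 9 at 0.05 (8.17). On average (11 called) it was 22 with array weights (15.4), 7 on the upper 60% (11.5), 4 with the Gapdh excess (3.28), 23 without FNo5 and M30-4 (14.5) and 22 at 0.05 (18.8). The 4 alternatives added after seeing the data are given for control, doxorubicin and average. They called 0, 1 and 1 without the kidneys with brown fat markers (0.323, 0.371 and 0.758) and 1, 0 and 0 with the Actb excess (1.99, 0.573 and 1.9). With the 3 distal tubule markers higher in females they called 0, 0 and 0 (0.516, 0.234 and 0.412), and with all 4 of them 2, 3 and 6 (1.42, 1.8 and 3.91). Doxorubicin in females (0 called) had 1 with array weights (Ndufa13) and 1 with the prefix (Uqcrc2). The methods' t-test at an unadjusted p under 0.01 called 16 and 10 between the sexes (10.1 and 10.2) and 1 and 2 for doxorubicin in males and females (1.57 and 1.38), and after Benjamini-Hochberg 0 and 1 between the sexes (0.928 and 0.468). Median differences moved to 0.045 (array weights) and 0.076 (without brown fat markers) for the interaction. For control kidneys they moved to 0.026 (median centring), 0.021 (3 tubule markers) and 0.0017 (without brown fat markers). With the 3 tubule markers the median moved to -0.0065 after doxorubicin, with its sign turned, and to 0.017 on average. The cause was not tested.

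Leaving out 1 kidney gave 2 to 7 called genes in control kidneys, 1 to 4 after doxorubicin and 6 to 16 on average (2.09 to 4.8, 1.2 to 2.87 and 5.08 to 10.7% of all genes). The 2 came without M13, M30-2 or F10-1 and the 7 without FNo5. The 1 came without M30-1, M30-2, M30-5, M12, F1, F10-2, M7, M9, M11, F3, F4, F5, F10-3 or F10-4 and the 4 without FNo5. On average 6 came without M12, F10-1, F10-2, F30-6, M7, M9 or F3 and 7 without M11, F4, F10-3 or F10-4. No gene was called for doxorubicin or the interaction in these fits. Cox8b, Atp5h, Ndufc1, Ndufs7, Sdhaf1 and Atp5k kept their average call in all 20, Ndufa10 in 10, Cox7a1 in 8, Cycs in 5, Ndufc2 in 4 and Atp5md in 2. Atp5h and Ndufc1 kept their control call and Cox8b its doxorubicin call in all 20, while the control calls of Atp5k and Cycs were kept in 15 and 5 and the doxorubicin call of Ndufa10 in 4. The spread of the genes' mean between replicates was 0.048. No paired analysis was possible because no groups share more than 1 animal number (at most the 5 of FNo5 and F5).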
